A study of Mus musculus with 10 samples.

Results

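Transcripts of 72 genes of glutathione and thiol-based antioxidant defence were followed in 2 cell populations sorted from mouse liver. Both are labelled as hepatic stellate cells (HSCs), the retinoid-storing pericytes of the liver sinusoid. The genes were taken by symbol out of the 25233 rows of the deposited table that carry one: the soluble and microsomal glutathione transferases, the glutathione peroxidases, the peroxiredoxins, the superoxide dismutases, every gene whose symbol starts with Txn, and *Gclc*, *Gclm*, *Gss*, *Gsr*, *Cat*, *Nqo1*, *Srxn1*, *Nfe2l2* and *Keap1*. Membership rests on the symbol alone. The study sequenced 10 bulk libraries of sorted cells, 5 of hypertrophied HSCs (hypHSCs) and 5 of quiescent HSCs (qHSCs), and the comparison asks how the hypertrophied cells of a fibrotic liver differ from quiescent ones. All animals were C57BL/6J mice. hypHSC 1 and 2 came from mice fed a high-fat diet that lacks choline and has defined amino acids (CDAHFD) for 13 weeks and 19 weeks old, and hypHSC 3, 4 and 5 from mice fed it for 12 weeks and 18 weeks old. qHSC 1, 2 and 5 came from mice on standard diet aged 36 weeks, and qHSC 3 and 4 from mice on that diet aged 34 weeks. The livers were dissociated with more enzyme in the CDAHFD group, antibiotics were added to its buffers, and the hypHSCs were gated on green and the qHSCs on blue autofluorescence, so diet, age, digestion and gate cannot be told apart. Libraries were chosen among preparations by RNA integrity and no source used here names the mouse behind each one, so n counts preparations and p-values measure the spread between preparations.

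Glutathione is built by glutamate-cysteine ligase, a pair of a catalytic subunit (*Gclc*) and a modifier subunit (*Gclm*), and by glutathione synthetase (*Gss*), and its oxidised form is returned to the reduced one by glutathione reductase (*Gsr*). Glutathione peroxidases and peroxiredoxins reduce peroxides, the former with glutathione and the latter mostly with thioredoxin, while glutathione transferases attach glutathione to electrophiles, and superoxide dismutases and catalase remove superoxide and hydrogen peroxide without thiols. Many of these genes are driven by NRF2 (*Nfe2l2*), a transcription factor held low by its adaptor KEAP1 and released when KEAP1 cysteines are modified, which binds the antioxidant response element of its targets together with a small MAF protein. Stellate cells meet oxidants and lipid aldehydes in steatohepatitis, and such stress is a known trigger of their activation.

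Reads on genes with a symbol numbered 30534719 to 43283589 in the hypHSC and 35640104 to 47317028 in the qHSC libraries, and the 72 genes held 1.29% to 1.5% of them in hypHSCs and 1.05% to 1.28% in qHSCs. Mitochondrial rows took 2.21% to 12.8% of the reads of hypHSCs, with the highest value in hypHSC 1, and 1.25% to 1.61% of those of qHSCs. The labelled cell type was checked against marker lists. Of 12 markers of quiescent stellate cells 12 were lower in hypHSCs, with summed normalized counts of 32144 to 61320 against 1361690 to 2253730 in qHSCs, and *Lrat*, the retinol-esterifying enzyme of stellate cells, read 476 to 2312 in hypHSCs and 74761 to 136938 in qHSCs. Of 14 macrophage markers 14 were higher, with a summed level of 1127690 to 1928370 in hypHSCs and of 51411, 6606, 11206, 116162 and 9825 in qHSC 1 to 5, and no marker of that list was at the floor of 3 reads in all libraries of a group. Of 12 hepatocyte markers 1 was lower and none higher, the sum ranging from 11676 to 104573 in hypHSCs, highest in hypHSC 5, and from 24252 to 81759 in qHSCs. All 5 tested cholangiocyte markers were higher, with a sum of 162434 to 336718 against 30.8 to 387 that was carried by *Spp1* (797 to 6833 against 4.72 to 56.1 without it), and *Cldn4* was at the floor in every qHSC library. *Krt19*, *Epcam* and *Cldn4* read at most 10.9 in any qHSC library. They reached the filter of 10 normalized counts in 5 libraries mainly through hypHSCs, so being tested all but fixed their direction. The 3 tested of 7 neutrophil markers, *S100a8*, *S100a9* and *Csf3r*, were higher (list sum of 1788 to 7753 against 10.5 to 391.9). The others, *Ly6g*, *Camp*, *Mpo* and *Elane*, were too low to be tested and had no read in most hypHSC libraries. *Camp* was also at the floor in every qHSC library. Higher genes also numbered 3 of 4 tested mesothelial and portal fibroblast markers (233 to 783 against 108 to 191), 3 of 7 sinusoidal endothelial markers beside 1 lower (5598 to 7198 against 987 to 2535), 1 of 4 lymphocyte markers (258 to 722 against 10.2 to 201) and 3 of 9 myofibroblast markers beside 2 lower (189141 to 351735 against 33169 to 62579, with *Spp1* in this list too). Over all genes tested 17.8% were higher and 21.7% lower. The neutrophil markers *S100a8* and *S100a9*, the portal fibroblast markers *Fbln2* and *Gli1* and the endothelial marker *Oit3* also reached the filter mainly through hypHSCs. Being tested all but fixed the direction of these markers. *Msln* and *Upk3b*, of the mesothelial list, were at the floor in every qHSC library. In every hypHSC library the summed macrophage markers exceeded the summed quiescent stellate markers, and in every qHSC library they lay below them. The names hypHSC and qHSC are those of the labels. These shifts in markers accompany every result given here and their part in it was not tested. In bulk libraries, fewer cells of a type and less RNA per cell cannot be told apart.

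A total of 65 of the 72 genes reached the filter of 10 normalized counts, the deposited unit in which the reads of a library are divided by its size factor, in at least 5 of the 10 libraries. The 7 that did not were *Gpx2*, *Gpx5*, *Gpx6*, *Gstt4*, *Prdx6b*, *Txndc2* and *Txndc8*. *Gpx6* and *Txndc8* had no read in any library, and the others read at most 52.6 normalized counts, reached by *Gpx2* in hypHSC 1. Genes were called differentially expressed (DEGs) where the absolute log2FC reached 1 and the adjusted p did not exceed 0.05, both from limma on log2(normalized count + 1) with Benjamini-Hochberg adjustment over all 14630 genes tested. By this definition 15 antioxidant genes were higher in hypHSCs, 15 were lower and 35 were not called. The called share, 46.2%, stood beside 39.5% of all genes tested, and by direction 23.1% were higher and 23.1% lower against 17.8% and 21.7% of all genes. The median log2FC of the 65 genes was 0.03 and that of all genes -0.20. In 15 genes every hypHSC library lay above every qHSC library and in 17 every one lay below, with 17.6% and 22.0% of all genes as background. On the recovered reads, DESeq2 called 15 antioxidant genes higher and 14 lower (19.6% and 20.2% of all genes) and edgeR also 15 and 14 (18.0% and 18.1% of all genes). Scaling the libraries on the reference genes *Hprt*, *Pgk1* and *Actb* in place of size factors moved the median of all genes to -1.12 and the calls to 9 higher and 29 lower, and no called gene changed its direction under it. The 6 genes that lost their call under it were *Gss*, *Gsta1*, *Mgst1*, *Prdx5*, *Txn1* and *Txndc17*, all called higher otherwise.

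**Figure D1:**
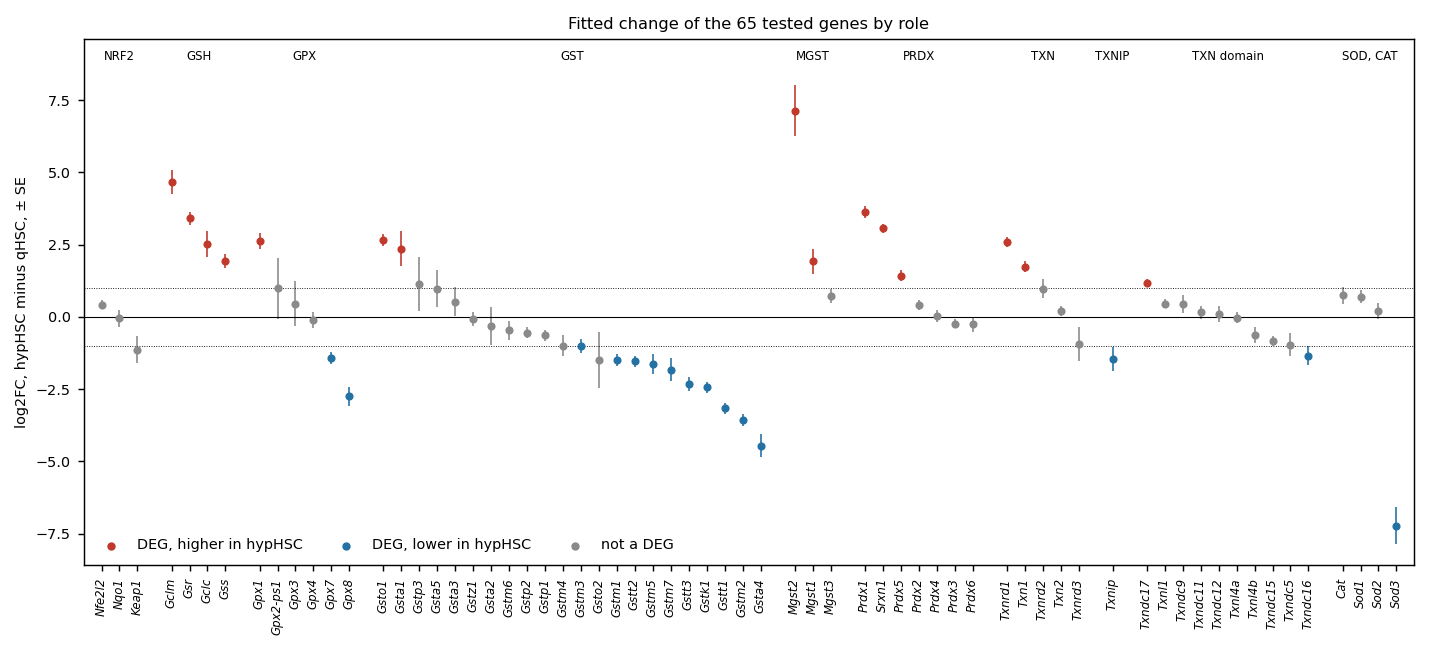
Fitted log2FC of the 65 tested genes (y axis, hypHSC minus qHSC, with limma SE) grouped by role along the x axis, where dotted lines mark a log2FC of 1 and -1 and colours mark DEGs. The 4 genes of glutathione synthesis and recycling stand above 1, 10 soluble transferases are coloured as lower, and *Mgst2* and *Sod3* lie at the extremes.

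None of the 3 genes of the NRF2 axis itself was called, beside 39.5% of all genes tested. *Nfe2l2* read 2901, 3637, 3311, 2782 and 3324 normalized counts in hypHSC 1 to 5 and 2499, 2693, 1942, 2540 and 2228 in qHSC 1 to 5. Every hypHSC library was above every qHSC library, by a log2FC of 0.43 ± 0.15 (SE; adjusted p = 0.0337 in limma), which is below the fold threshold and turned to -0.51 with scaling on the reference genes. *Keap1*, the adaptor that targets NRF2 for degradation, read 164, 119, 169, 48.3 and 34.8 in hypHSC 1 to 5 and 224, 263, 156, 205 and 157 in qHSC 1 to 5. hypHSC 4 and 5 were the lowest, the groups overlapped through hypHSC 1 and 3, and the log2FC of -1.13 ± 0.47 had an adjusted p of 0.0686 in limma. Without hypHSC 1 or 3 it was called, at -1.35 and -1.36 (adjusted p = 0.0423 and 0.0388, limma). *Nqo1*, the quinone reductase often used as a readout of NRF2, read 167, 246, 232, 211 and 93.8 in hypHSCs and 200, 187, 181, 173 and 195 in qHSCs, where the hypHSC range enclosed the qHSC range (log2FC -0.05 ± 0.30, adjusted p = 0.898, limma).

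Because these genes share a known regulator, their promoters were searched for TGACNNNGC, the core of the antioxidant response element, on both strands of the RefSeq windows from 250 bases before to 50 bases after the gene start (windows of assembly GRCm38.p6, placed on GRCm39 by exact match of the whole window). Of the 72 genes 61 had a window and 13 of these held the motif, 21.3%, against 3781 of 27025 genes (14%). Among genes higher in hypHSCs 5 of 13 with a window held it, among those lower 2 of 12, and among those tested and not called 5 of 30. *Nfe2l2* and *Sod1* were among the last. The 7 matches in called genes are shown since these genes are described next, each in the direction of its gene with the motif in capitals. A motif on the strand opposite to the gene reads GCNNNGTCA. The direction is that of the plus strand of GRCm39 for all but *Gstm7*, which is shown on the minus strand. The match of *Prdx1* overlaps the letters TGACTCA of an AP-1 site, as 1 of the 13 did. A match is a description of the letters and was not tested as a binding site.
Gclm, chr3:122039062-122039090: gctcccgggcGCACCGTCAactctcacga
Txnrd1, chr10:82694938-82694966: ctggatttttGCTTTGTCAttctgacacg
Prdx1, chr4:116542653-116542681: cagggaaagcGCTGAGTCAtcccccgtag
Srxn1, chr2:151947462-151947490: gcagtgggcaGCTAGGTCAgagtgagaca
Mgst1, chr6:138117459-138117487: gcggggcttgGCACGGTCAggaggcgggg
Gstm5, chr3:107803118-107803146: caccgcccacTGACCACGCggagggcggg
Gstm7, chr3:107839041-107839069: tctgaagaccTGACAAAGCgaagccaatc
The matches of *Gclm*, *Txnrd1*, *Prdx1*, *Mgst1*, *Gstm5* and *Gstm7* lie upstream of the start at positions -134, -92, -133, -56, -42 and -129, and that of *Srxn1* lies 29 bases downstream of it. The start is that of RefSeq and can differ from the edge of the deposited row. The match of *Txnrd1* lies 25153 bases inside its row and that of *Gstm7* 64 bases inside, counted from the 5′ edge.

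All 4 genes of glutathione synthesis and recycling were higher in hypHSCs, 100% beside 17.8% of all genes, and so in all 10 fits that left out 1 library. With scaling on the reference genes *Gss* was not called (log2FC 0.99), while *Gclc*, *Gclm* and *Gsr* were. *Gclm*, the modifier subunit that lowers the substrate needs of glutamate-cysteine ligase, read 908, 786, 1024, 1792 and 2978 normalized counts in hypHSC 1 to 5 and 33.5, 47.7, 72.4, 78.7 and 36.0 in qHSC 1 to 5. The lowest hypHSC library was far above the highest qHSC library, hypHSC 4 and 5 were the highest of all, and the mean was 27.9-fold higher (log2FC 4.67 ± 0.41, adjusted p = 5.97e-06, limma). *Gsr*, which regenerates reduced glutathione with NADPH, read 2649, 2296, 2073, 3252 and 3943 in hypHSCs and 296, 208, 220, 378 and 231 in qHSCs. hypHSC 4 and 5 were again the highest and the groups did not overlap (10.7-fold, log2FC 3.41 ± 0.24, adjusted p = 1.05e-06, limma). For *Gclc*, the catalytic subunit, the values were 828.7, 524, 755, 832 and 1328 in hypHSCs and 185, 49.4, 193, 300 and 106 in qHSCs. The qHSC libraries themselves spread over a wide range, with qHSC 4 the highest and qHSC 2 the lowest, and all lay below the hypHSC libraries (5.12-fold, log2FC 2.52 ± 0.45, adjusted p = 0.000824, limma). *Gss*, the second step of the synthesis, read 1319, 1546, 1922, 1107 and 873 in hypHSCs and 361, 297, 312, 395 and 350 in qHSCs. Here hypHSC 4 and 5 were the lowest of their group, and the groups still did not overlap (3.95-fold, log2FC 1.93 ± 0.23, adjusted p = 4.51e-05, limma). The exact two-sided permutation test over the 252 arrangements of the libraries gave p = 0.00794 for each of the 4 genes, the smallest it can give. Compared per exon length, as FPKM, *Gclc* made up 56.8% to 87.5% of the summed level of the 2 ligase subunits in qHSCs and 36.2% to 53.7% in hypHSCs. These shares depend on the annotated exon lengths, 6266 bases for *Gclc* and 7956 for *Gclm*, which were the same for both groups.

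**Figure D2:**
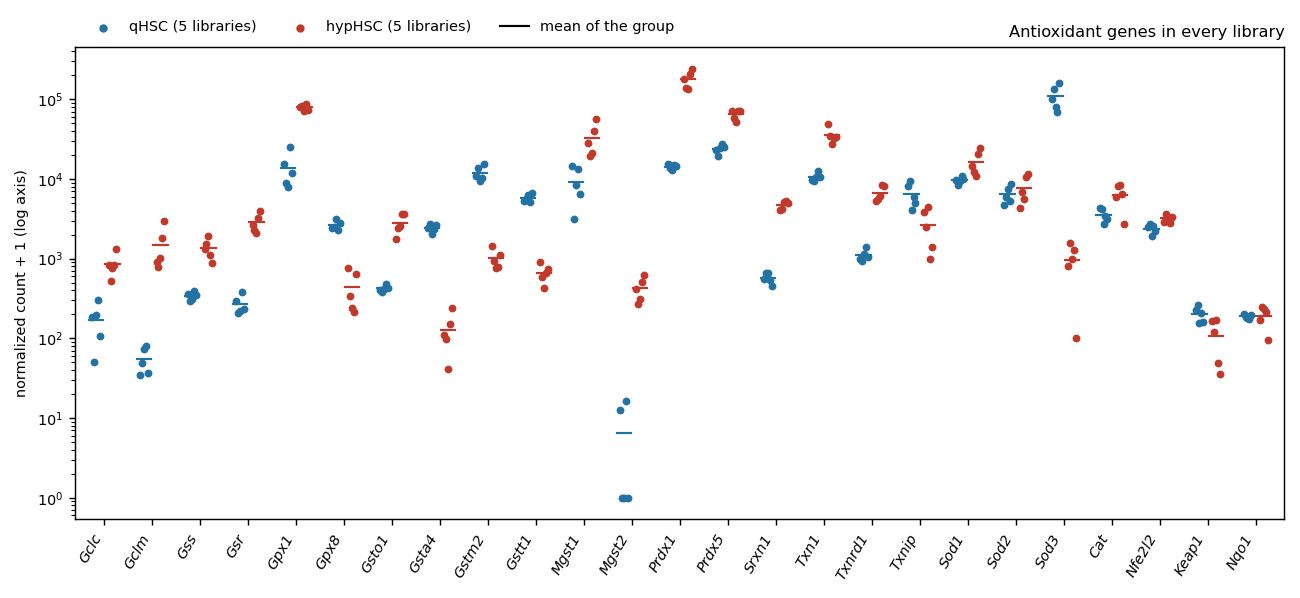
Normalized count + 1 (y axis, log scale) of 25 antioxidant genes in each library, with qHSCs in blue on the left, hypHSCs in red on the right and a line at the mean of 5 libraries, points being spread sideways by replicate number only. Groups stand apart for genes of glutathione synthesis, *Prdx1*, *Srxn1* and *Txnrd1* upwards and for *Gsta4*, *Gstm2*, *Gstt1* and *Sod3* downwards, and overlap for *Sod1*, *Sod2*, *Cat*, *Keap1* and *Nqo1*.

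Of the 5 glutathione peroxidase genes tested 1 was higher, 2 were lower and 2, *Gpx3* and *Gpx4*, were not called. Over all genes 17.8% were higher and 21.7% lower. The pseudogene *Gpx2-ps1*, which the rule also takes, read 0 to 53.5 normalized counts in hypHSCs and 2.56 to 15.4 in qHSCs and was not called. *Gpx1*, the abundant cytosolic and mitochondrial selenoenzyme, read 79852, 82528, 72117, 87437 and 72527 normalized counts in hypHSC 1 to 5 and 15492, 8941, 8015, 25101 and 11927 in qHSC 1 to 5. The hypHSC values were even, and the 2 highest qHSC libraries, qHSC 4 and 1, were those with the highest macrophage markers (5.68-fold, log2FC 2.63 ± 0.29, adjusted p = 2.75e-05, limma). The endoplasmic reticulum members went the other way. *Gpx8* read 755, 341, 241, 212 and 643 in hypHSCs and 2398, 2468, 3115, 2289 and 2838 in qHSCs, with hypHSC 1 and 5 above the other three (5.98-fold lower, log2FC -2.75 ± 0.34, adjusted p = 6.92e-05, limma), and *Gpx7* lay at 595 to 1036 against 1468 to 2496 (log2FC -1.43 ± 0.21, adjusted p = 0.000185, limma). *Gpx4*, the selenoenzyme that reduces phospholipid hydroperoxides and restrains ferroptosis, read 8527, 7143, 7058, 6632 and 2769 in hypHSCs and 7284, 6174, 6018, 6537 and 6735 in qHSCs. hypHSC 5 stood far below all other libraries, and the log2FC was -0.12 ± 0.27 (adjusted p = 0.741, limma), or 0.16 without hypHSC 5. *Gpx3*, the secreted plasma form, varied more within than between groups, from 2369 in hypHSC 5 to 33019 in hypHSC 2 and from 3267 in qHSC 3 to 27581 in qHSC 2, and 85% of its exon bases lie under *Tnip1* on the other strand. For *Gpx1* that share was 85.3%, under *Gm57050*, and in libraries that do not keep the strand the reads of such pairs cannot be told apart. The same limit holds for *Sod1* (48.8%, *Scaf4*), *Prdx5* (29%, *Trmt112*), *Gss* (21.9%, *Acss2*) and *Prdx2* (16.8%, *Rnaseh2a*), among others. Of these partners only *Rnaseh2a* was a DEG (log2FC 1.41). *Gpx4* shares 42.3% of its stretches of read length with other genes, mostly *Gm63662*.

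Of the 22 soluble glutathione transferases tested, the largest class, 10 were lower and 2 higher, 45.5% and 9.09% beside 21.7% and 17.8% of all genes, with a class median log2FC of -1.0. All 7 mu genes, which lie together on chromosome 3 between 107803154 and 107952176 (GRCm39), had a fitted value below 0 and 5 of them were DEGs, and all 3 tested theta genes of the chromosome 10 cluster (75609951 to 75670715) were DEGs. *Gstm2* read 1440, 945, 769, 788 and 1113 normalized counts in hypHSC 1 to 5 and 10950, 13703, 9451, 10160 and 15312 in qHSC 1 to 5. The groups were separated by a wide gap (11.8-fold lower, log2FC -3.57 ± 0.21, adjusted p = 3.68e-07, limma), and its neighbour *Gstm1*, the most abundant mu gene, was lower by less, 9964 ± 2039 against 28316 ± 6013 (SD, n = 5; log2FC -1.51 ± 0.21). *Gstm3*, *Gstm5* and *Gstm7* were lower by a log2FC of -1.0 to -1.83, while *Gstm4* (log2FC -1.0, adjusted p = 0.0463, limma) lay just under the fold threshold and *Gstm6* was not called. Leaving out 1 library in turn moved the log2FC of *Gstm3* between -1.13 and -0.90, with no call without hypHSC 3, 4 or 5 or qHSC 2 or 5, and that of *Gstm4* between -1.15 and -0.63, with a call without hypHSC 1, 2 or 3. *Gstt1*, a theta transferase that handles small haloalkanes, read 908, 593, 426, 657 and 734 in hypHSCs and 5362, 5680, 6255, 5146 and 6669 in qHSCs (8.78-fold lower, log2FC -3.17 ± 0.20, adjusted p = 5.52e-07, limma). No hypHSC library came near the qHSC range for *Gstt1*, nor for *Gstt3* (log2FC -2.33) or *Gstt2* (log2FC -1.53).

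The alpha genes did not move as a block. *Gsta4*, the transferase specialised in the lipid aldehyde hydroxynonenal, read 111, 98.4, 39.9, 149 and 242 normalized counts in hypHSC 1 to 5 and 2414, 2727, 2064, 2378 and 2647 in qHSC 1 to 5. It was the largest fall of the transferases and left no hypHSC library within reach of the qHSC range (19.1-fold lower, log2FC -4.46 ± 0.39, adjusted p = 5.74e-06, limma). *Gsta1* read 101, 72.5, 42.4, 96.5 and 119 in hypHSCs and 9.05, 7.67, 47.2, 29.1 and 7.49 in qHSCs, a rise with overlap between hypHSC 3 and qHSC 3 (log2FC 2.36 ± 0.60, adjusted p = 0.00726, limma). Its count is uncertain, because 89.9% of its stretches of read length occur in another gene, mostly *Gsta13*. *Gsta2*, *Gsta3* and *Gsta5* were not called. *Gsto1*, an omega enzyme with thioltransferase activity, read 1749, 2388, 2536, 3630 and 3589 in hypHSCs and 406, 379, 416, 481 and 431 in qHSCs. It was lowest in hypHSC 1 of its group and well apart from qHSCs (6.57-fold, log2FC 2.67 ± 0.22, adjusted p = 3.21e-06, limma). *Gstk1*, a kappa enzyme of mitochondria and peroxisomes, was 5.40-fold lower, 208 ± 36.9 against 1124 ± 131 (SD, n = 5; log2FC -2.44 ± 0.20, adjusted p = 2.98e-06, limma). The pi pair stayed abundant. *Gstp1* read 19234, 13015, 11719, 19651 and 22515 in hypHSCs and 26892, 27143, 23360, 26110 and 27109 in qHSCs, so the groups did not overlap but the log2FC of -0.64 ± 0.20 (adjusted p = 0.0221, limma) missed the fold threshold. *Gstp1* and *Gstp2* share 29.5% and 51.3% of their stretches of read length with other genes, chiefly each other, so reads could be split between them. *Gsto2*, *Gstp3* and *Gstz1* were not called.

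Of the 3 membrane-bound transferases 2 were higher and 1 was not called, 66.7% higher beside 17.8% of all genes. *Mgst2*, which also takes part in cysteinyl leukotriene synthesis, read 419, 270, 315, 508 and 628 normalized counts in hypHSC 1 to 5 and 11.8, 0, 0, 15.4 and 0 in qHSC 1 to 5. It was detected in all hypHSC libraries and, among qHSCs, in qHSC 1 and 4, the libraries with the highest macrophage markers. The fitted log2FC was 7.14 ± 0.89 (adjusted p = 6.92e-05, limma), and since 3 qHSC libraries were at 0 it moved between 5.13 and 7.75 with a pseudocount of 8 or 0.5. *Mgst2* reached the filter mainly through hypHSCs, so being tested all but fixed its direction. *Mgst1*, the abundant form of the endoplasmic reticulum and outer mitochondrial membrane, read 28083, 19343, 21456, 39940 and 55765 in hypHSCs and 14341, 3105, 8361, 13273 and 6534 in qHSCs. hypHSC 4 and 5 were the highest, qHSC 1 and 4 came nearest from the other group, and the groups did not overlap (3.61-fold, log2FC 1.93 ± 0.43, adjusted p = 0.00348, limma). *Mgst3* was not called, with 1381 to 3100 against 1082 to 1869 (log2FC 0.73 ± 0.24, adjusted p = 0.0259, limma).

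Among peroxiredoxins the 2 most abundant forms rose and the other 4 tested forms were not called. With *Srxn1*, 42.9% of the 7 tested genes were higher and none lower, beside 17.8% and 21.7% of all genes. *Prdx1*, the main cytosolic peroxiredoxin and a known NRF2 target, read 177484, 137939, 134285, 209905 and 240660 normalized counts in hypHSC 1 to 5 and 15263, 13609, 13002, 15017 and 14368 in qHSC 1 to 5. The qHSC values were almost level, hypHSC 4 and 5 were the highest, and the mean was 12.6-fold higher (log2FC 3.62 ± 0.21, adjusted p = 2.85e-07, limma). Of its exon bases 13.8% lie under *AV051173* on the other strand, itself higher in hypHSCs by a log2FC of 3.36. *Srxn1*, the sulfiredoxin that repairs overoxidised peroxiredoxins, read 4060, 4170, 5197, 5283 and 5011 in hypHSCs and 548, 660, 655, 532 and 450 in qHSCs, and was tight within both groups (8.34-fold, log2FC 3.06 ± 0.16, adjusted p = 1.96e-07, limma). *Prdx5*, found in mitochondria, peroxisomes and cytosol, rose less, 71217, 58236, 52166, 70931 and 71229 against 23388, 19646, 24282, 27456 and 25126 (2.7-fold, log2FC 1.43 ± 0.18, adjusted p = 6.24e-05, limma). The remaining forms were *Prdx2* (log2FC 0.41, adjusted p = 0.0529), the mitochondrial *Prdx3* (-0.23, 0.271), the endoplasmic reticulum *Prdx4* (0.03, 0.917) and *Prdx6* (-0.26, 0.433), all by limma and all with overlapping groups. *Prdx6*, which uses glutathione rather than thioredoxin, ranged in hypHSCs from 5074 in hypHSC 5 to 12351 in hypHSC 1, which enclosed the 6633 to 11859 of qHSCs.

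The thioredoxin system showed the cytosolic pair rising and the mitochondrial pair not called. Among the 5 tested thioredoxins and reductases 40% were higher and none lower, beside 17.8% and 21.7% of all genes. *Txnrd1*, the cytosolic thioredoxin reductase and another selenoenzyme, read 5289, 5584, 6045, 8398 and 8083 normalized counts in hypHSC 1 to 5 and 984, 924, 1157, 1393 and 1045 in qHSC 1 to 5. hypHSC 4 and 5 were the highest and the groups were well apart (6.07-fold, log2FC 2.59 ± 0.19, adjusted p = 1.33e-06, limma). Its substrate *Txn1* read 49390, 34652, 27381, 32715 and 33506 in hypHSCs and 9832, 9294, 10527, 12511 and 10513 in qHSCs, where hypHSC 1 stood above the rest (3.37-fold, log2FC 1.73 ± 0.18, adjusted p = 2.06e-05, limma). The mitochondrial *Txn2* had a log2FC of 0.21 (adjusted p = 0.346, limma) and its reductase *Txnrd2* one of 0.98 (adjusted p = 0.0294, limma), just under the fold threshold, and between 0.80 and 1.13 with 1 library left out, with a call without hypHSC 2, 3 or 5 or qHSC 3 or 5. *Txnip*, which binds reduced thioredoxin and limits glucose uptake, read 3886, 2461, 4388, 994 and 1381 in hypHSCs and 8077, 9539, 4043, 5973 and 5034 in qHSCs. The groups overlapped, since hypHSC 3 was above qHSC 3, and the fall (log2FC -1.47 ± 0.41, adjusted p = 0.0126, limma) was not called when the comparison used qHSC 2, 3 and 5 alone (log2FC -1.36, adjusted p = 0.0672, limma). Of its exon bases 29.3% lie under *Gm15441* on the other strand, which was lower too, by a log2FC of -2.15. Of the 10 tested proteins with a thioredoxin fold or domain 1 rose and 1 fell, 10% each way and below the 17.8% and 21.7% of all genes. The small cytosolic *Txndc17* read 10350 to 16205 against 5261 to 6194 (log2FC 1.17 ± 0.15, adjusted p = 8.34e-05, limma), or a log2FC of 0.81 and no call with libraries scaled to equal totals. *Txndc16* of the endoplasmic reticulum read 71.1 to 225 against 364 to 473 (log2FC -1.35 ± 0.33, adjusted p = 0.00556, limma).

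The enzymes that remove superoxide and hydrogen peroxide without thiols showed the largest fall of all beside 3 genes that were not called. That is 25% lower, near the 21.7% of all genes, and none higher. *Sod3*, the secreted superoxide dismutase that binds extracellular matrix and the cell surface, read 804, 1578, 983, 1289 and 99.8 normalized counts in hypHSC 1 to 5 and 100616, 134409, 81027, 68902 and 161228 in qHSC 1 to 5. The lowest qHSC library exceeded the highest hypHSC library many times over, hypHSC 5 was the lowest of all, and the mean was 115-fold lower (950.9 ± 560 against 109236 ± 38189, SD, n = 5; log2FC -7.22 ± 0.64, adjusted p = 6.35e-06, limma). *Sod1*, the cytosolic copper and zinc enzyme, read 14358, 12144, 10910, 20406 and 24507 in hypHSCs and 9761, 8315, 9432, 10991 and 9870 in qHSCs. The single overlap was between hypHSC 3 and qHSC 4, and the log2FC of 0.70 ± 0.23 (adjusted p = 0.0251, limma) missed the fold threshold and turned to -0.24 with scaling on the reference genes. *Sod2*, the mitochondrial manganese enzyme, read 4354, 6886, 5553, 10492 and 11395 in hypHSCs and 4761, 5895, 7509, 5257 and 8760 in qHSCs, with a log2FC of 0.21 ± 0.29 (adjusted p = 0.576, limma). Catalase (*Cat*) read 5902, 8101, 8402, 6429 and 2727 in hypHSCs and 4264, 4241, 2733, 3442 and 3104 in qHSCs. Of the hypHSC libraries 4 lay above all qHSC libraries and hypHSC 5 lay below all, so that the log2FC was 0.75 ± 0.29 (adjusted p = 0.0541, limma) with it and 1.02 (adjusted p = 0.000714, limma) without it.

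Levels of different genes were compared per exon length, as FPKM recomputed from the recovered reads. The length is that of all annotated exons of a gene, 8648 bases for *Sod1*, 13039 for *Sod2* and 4163 for *Sod3*. Ranks and shares between genes depend on these lengths, which are the same for both groups. The paper's FPKM of *Lrat* and *Dcn* in qHSCs differ from those recomputed here. In qHSCs *Sod3* had the highest mean FPKM of all 65 genes (792 ± 241, SD, n = 5), followed by *Gstp1* (488 ± 20.3) and *Gstp2* (364 ± 16.1). In hypHSCs the leading genes were *Gpx1* (1306 ± 145), *Prdx1* (1016 ± 163) and *Prdx5* (612 ± 49.5), and *Sod3* ranged from 0.501 to 9.29. The make-up of the families shifted accordingly. *Prdx1* formed 55.7% to 65.1% of the summed FPKM of the 6 peroxiredoxins in hypHSCs and 19.9% to 22.5% in qHSCs, where *Prdx5* led with 53.7% to 61.6%. Of the 3 superoxide dismutases, *Sod3* made up 90.8% to 95.8% in qHSCs and 0.643% to 16.4% in hypHSCs, where *Sod1* took 60.8% to 75.9%. *Gpx1* held 78.7% to 94.1% of the 5 peroxidases in hypHSCs and 29.3% to 69.1% in qHSCs, highest in qHSC 4. The summed FPKM of the 22 soluble transferases ranged from 522 to 731 in hypHSCs and from 1472 to 1698 in qHSCs, and that of the 3 microsomal ones from 247 to 590 and from 57.0 to 228. The 6 peroxiredoxins together stood at 1460 to 1859 in hypHSCs and 441 to 546 in qHSCs.

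**Figure D3:**
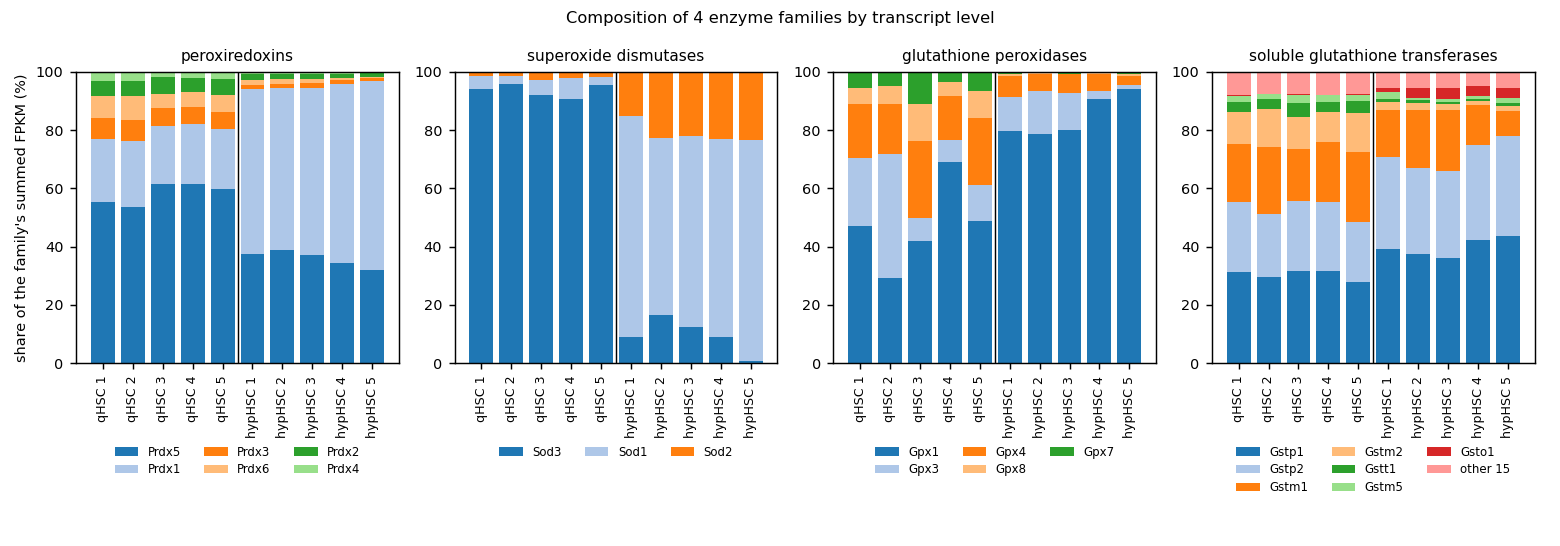
Share of each gene in the summed FPKM of its family (y axis, percent) in every library (x axis, qHSCs left of the line and hypHSCs right of it) for peroxiredoxins, superoxide dismutases, glutathione peroxidases and soluble glutathione transferases. *Prdx1* replaces *Prdx5* as the leading peroxiredoxin transcript, *Sod1* replaces *Sod3*, *Gpx1* takes at least 78.7% of peroxidase transcripts in hypHSCs, and *Gstp1* is the leading transferase transcript in all 10 libraries.

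Other genes of the pathway were followed in 6 lists of 93 genes, of which 91 were tested, 26 were higher and 13 lower, 28.6% and 14.3% beside 17.8% and 21.7% of all genes. Of 20 NRF2 targets outside the antioxidant genes above, 13 were higher and 2 lower. The list median log2FC was 2.02 beside -0.20 for all genes. Targets described above are thus left out, among them *Nqo1*, which was not called, and *Prdx1*, which was higher. The lists were chosen with earlier results of these data known, so these counts and medians describe the chosen genes and do not test NRF2 activity. *Slc7a11*, the cystine importer that supplies glutathione synthesis, read 1345, 2473, 2339, 1842 and 2608 normalized counts in hypHSC 1 to 5 and 8.15, 6.82, 37, 13.7 and 3.75 in qHSC 1 to 5 (log2FC 7.50 ± 0.51, adjusted p = 8.16e-07, limma). Like *Mgst2*, it reached the filter mainly through hypHSCs, so being tested all but fixed its direction. *Hmox1*, the haem oxygenase, read 12690, 15060, 12907, 8889 and 5714 in hypHSCs and 787, 236, 279, 1322 and 296 in qHSCs (log2FC 4.51 ± 0.48, adjusted p = 2.16e-05, limma). For *Hmox1* the highest qHSC libraries were again qHSC 4 and 1. The fallers were the epoxide hydrolase *Ephx1* (log2FC -3.30 ± 0.21) and the malic enzyme *Me1* (log2FC -1.50 ± 0.35), so the list was not uniform.

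In the list of glutathione supply, transport and turnover 4 genes rose, 3 fell and 11 were not called, 22.2% higher and 16.7% lower, near the shares of all genes. *Slc3a2*, the partner chain of *Slc7a11*, had a log2FC of 2.38 ± 0.23 and the glutamine carrier *Slc1a5* one of 1.44 ± 0.26. *Ggt5*, which cleaves extracellular glutathione and leukotrienes, read 124, 111, 72.4, 67.1 and 51.4 normalized counts in hypHSC 1 to 5 and 3634, 4185, 2044, 2558 and 2881 in qHSC 1 to 5, with no overlap (log2FC -5.18 ± 0.29, adjusted p = 2.79e-07, limma), and *Csad*, of taurine synthesis, had a log2FC of -1.85 ± 0.44. Among 20 genes of thiol repair 4 rose and 4 fell, which is also near those shares. The glutaredoxin *Glrx* (log2FC 3.43 ± 0.19) and the cytosolic methionine sulfoxide reductase *Msrb1* (2.46 ± 0.28) led upwards, and *Msrb3* (-4.06 ± 0.36) and the sulfhydryl oxidase *Qsox1* (-2.14 ± 0.46) downwards. Of 17 tested genes of selenoprotein synthesis and other selenoproteins 2 rose and 2 fell, 11.8% each way and below the shares of all genes. *Sephs2*, which makes selenophosphate, read 1391, 972, 873, 3195 and 11652 in hypHSCs against 468 to 861 in qHSCs, so its log2FC of 1.89 ± 0.61 leaned on hypHSC 4 and 5. It was not called without hypHSC 4, qHSC 3 or qHSC 5 (log2FC 1.75, 1.82 and 1.84, adjusted p = 0.0587, 0.0534 and 0.0513, limma). *Secisbp2* was higher (1.06, and 0.97, 0.93 and 1.0 with no call without hypHSC 2, hypHSC 4 and qHSC 3) and *Selenom* (-2.07) and *Eefsec* (-1.63) were lower. The copper chaperone *Atox1* rose (2.29 ± 0.18) and the metallothionein *Mt2* fell (-1.57 ± 0.26) among 6 genes of metal handling, 16.7% each way. Of 10 NRF2 partners and repressors the repressor *Bach1* (2.13 ± 0.43) and the small MAF gene *Maff* (1.12 ± 0.34) rose and *Btrc*, of a ubiquitin ligase that also targets NRF2, fell (-1.40 ± 0.40). That is 20% higher, near the 17.8% of all genes, and 10% lower, below the 21.7% of all genes. Neither *Maff* (0.89) nor *Btrc* (-1.0) was called without hypHSC 5.

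**Figure D4:**
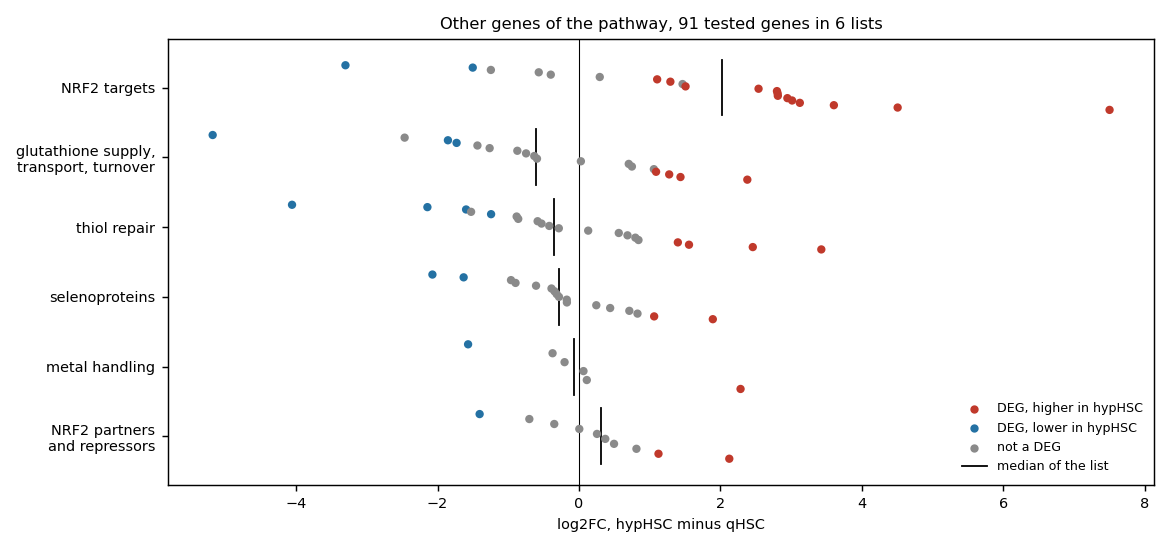
Fitted log2FC (x axis, hypHSC minus qHSC) of the 91 tested genes of the 6 lists (rows), 1 point a gene, with DEGs coloured by direction and a line at the list median. The NRF2 targets outside the antioxidant genes have their median at 2.02 and the medians of the other lists lie between -0.61 and 0.31. The lists were chosen with earlier results of these data known.

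Among the 15 genes higher in hypHSCs, the highest of the 5 qHSC libraries was qHSC 4 for 10 genes and qHSC 1 for 3, and these were the 2 highest for 6. They are the libraries with summed macrophage markers of 116162 and 51411 normalized counts against 6606 to 11206 in the other three. Of all 2602 genes higher in hypHSCs, qHSC 4 was the highest qHSC library for 37.5% and qHSC 1 for 19.5%, and these were the 2 highest for 27.1%. *Srxn1* was highest in qHSC 2 and *Gclm* in qHSC 4 and 3. Among the 15 genes lower in hypHSCs, the highest qHSC library was qHSC 5 for 11 genes and neither qHSC 1 nor qHSC 4 for any, beside 23.8% for qHSC 5, 16.9% for qHSC 1 and 6.39% for qHSC 4 over all 3177 genes lower. With qHSC 1 and 4 left out, an alternative added after the data were seen, 15 antioxidant genes were higher and 14 lower, the one lost being *Txnip*. The hypHSC libraries in it still held summed macrophage markers of 1127690 to 1928370, so the part of these markers was not tested. Within hypHSCs, using the 3 libraries of 12 weeks of diet alone kept all 30 calls, and added *Keap1*, *Gstm4*, *Txnrd2* and *Txndc5*.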

How the data were processed

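The deposited unit is a signal, the normalized count: per the labels and the paper's methods, the authors mapped paired reads from a non-stranded, poly(A)-primed low-input kit to mm39 (GRCm39) with STAR, counted them with featureCounts (Subread 1.5.0) and divided them by DESeq2 size factors. Multiplying each column by its factor gave whole reads for 100% of values (tolerance 0.005). These reads served for FPKM (GENCODE exon lengths) and for DESeq2 (1.42.0) and edgeR (4.0.16). Groups came from the sample titles. limma (3.58.1, trend) was fitted in R 4.3.3 to log2(normalized count + 1) of the 14630 symbol-bearing genes that reached 10 normalized counts in 5 or more libraries, without covariates, and was tested on simulated data. The 37089 rows without a symbol entered an alternative. A floor of 3 reads equals 2.25 to 4.54 normalized counts, for counting error only. The genes named are a fixed core, the largest DEGs and most abundant gene of each role, and the 2 largest DEGs of each list in each direction. Members and lists were chosen with earlier results of these data known. Alternatives changed pseudocount, filter, scaling, tool, block or libraries. Promoter windows are RefSeq's.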

Additional observations from a re-analysis of the deposited data

Results flagged for a closer look

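Of 110 groups of 5 libraries, 55 genes in 2 groups, 6 had a library whose gap to its neighbour on the log2 scale was over 0.71 of the group's range, where chance flags about 1 in 20. hypHSC 5 was set apart at the low end for *Sod3* (99.8 normalized counts, others 804 to 1578), *Gpx4* (2769, others 6632 to 8527) and *Eefsec* (60.5, others 199 to 260). hypHSC 3 was low for *Selenom* (2340, others 3843 to 4461). Among qHSCs, qHSC 3 was low for *Gstp1* (23360, others 26110 to 27143) and qHSC 5 was high for *Selenom* (18656, others 14015 to 15129). hypHSC 5 also had the highest summed hepatocyte markers (104573, others 11676 to 52330) and the lowest size factor, 0.661, and the part of these in its values was not tested. Without hypHSC 5 the log2FC of *Sod3* was -6.53.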

How the results depend on the processing

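The counts of antioxidant DEGs (15 higher, 15 lower) stayed within 1.5 times under all alternatives but 1. Scaling on *Hprt*, *Pgk1* and *Actb* gave 9 higher and 29 lower, and 15 higher and 39 lower among the genes of the 6 lists (26 and 13 otherwise), and it turned *Nfe2l2* (-0.51), *Prdx2* (-0.53), *Prdx4* (-0.91), *Cat* (-0.19), *Sod1* (-0.24) and *Sod2* (-0.73) below 0, none of them a DEG. That scaling moves all log2FCs together, in a direction set by the reads of the reference genes. Here the median over all genes went from -0.20 to -1.12. The paper had chosen HPRT1, PGK1 and actin among its qPCR reference genes by their stability in sorted cells. Which scaling is nearer to the true levels was not tested. Equal totals turned *Prdx4* (-0.33) and *Sod2* (-0.15), equal upper quartiles *Nqo1* (0.069) and *Gpx4* (0.0044), DESeq2 and edgeR *Nqo1* (0.028 and 0.024), the 12-week hypHSCs *Prdx4* (-0.042) and qHSC 2, 3 and 5 alone *Sod2* (-0.010). The cause of these was not tested, and all have fitted values near 0 otherwise. DESeq2 and edgeR each called 15 antioxidant genes higher and 14 lower, losing *Gstm3*. Leaving out 1 library gave 15 to 19 higher and 14 to 18 lower, 23 to 26 and 12 to 14 in the lists, and moved *Nqo1* between -0.17 and 0.18, *Gpx4* between -0.24 and 0.16 and *Prdx4* between -0.090 and 0.14. Replicate numbers share only a number: same-number correlations were 0.066, 0.073, 0.0082, 0.062 and 0.129, and only replicate 5 correlated best with its own number. With the replicate block 15 antioxidant genes were higher and 15 lower, and 26 and 14 in the lists. Genes under about 10 normalized counts, and the folds of *Mgst2* and *Slc7a11* against near-empty qHSC libraries, are limited by depth.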
